A study of Arabidopsis thaliana with 10 samples.

Results

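RBOHH (AT5G60010), RBOHJ (AT3G45810) and MARIS (AT2G41970) are 3 Arabidopsis genes of the pollen tube wall-integrity pathway, and their transcripts were followed here through 10 pollen RNA sequencing libraries. They were chosen by their gene identifiers, as proteins that act downstream of the wall-integrity receptors, and they make up 3 of the 27394 genes in the deposited count tables. All libraries came from mature pollen of plants in the Col-0 background, and each of the 5 groups held 2 libraries. In the RTL1 experiment, whole pollen carried RTL1-Myc, a ribonuclease that cuts double-stranded RNA before small RNAs can be made from it, under the LAT52 promoter, which is active from late microspores on and then mostly in the vegetative cell (pLAT52::RTL1), or under the MGH3 promoter of the male germline (pMGH3::RTL1), and pollen of plants without a transgene (WT Col-0) was the control. The study describes 2 independent transgenic lines for each construct. In the FTL experiment, plants heterozygous for nrpd1a-3, a T-DNA allele of the largest subunit of RNA polymerase IV, also carried a fluorescence-tagged line (FTL) whose pLAT52::DsRed marker is linked to the wild-type allele. Their pollen was sorted by fluorescence into DsRed-negative grains (nrpd1a-3 FTL) and DsRed-positive grains (WT FTL), so that both groups came from the same heterozygous plants. A sorted DsRed-negative grain carries the mutant allele only where no recombination has parted it from the marker. The labels call the libraries of a group biological replicates without saying more of their source, and p-values measure the spread between these libraries, which for WT Col-0 and the FTL groups may be partly technical.

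RBOH proteins are NADPH oxidases, membrane enzymes that pass electrons from NADPH inside the cell to oxygen outside it and so make superoxide. RBOHH and RBOHJ are the pair of this family known from pollen tubes, and tubes that lack both tend to burst. MARIS is a receptor-like cytoplasmic kinase of the RLCK-VIII group that works in the same pathway, below the receptor kinases ANX1 and ANX2, which bind RALF peptides with their partner kinases and so report the state of the wall to the inside of the tube.

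The RBOHH and RBOHJ genes are related by sequence, which bears on how far their reads can be told apart. RBOHH lies on chromosome 5, from 24160456 to 24164755 on the plus strand (TAIR10), with 13 exons and 2661 coding bases in RefSeq's annotation of TAIR10.1. RBOHJ lies on chromosome 3, from 16832883 to 16837569 on the minus strand, with 13 exons and 2739 coding bases. The coding sequences were identical at 81.0% of 2655 aligned bases. The longest run that they share was 40 bases, and none of their 50-base pieces occurred at another place in the 5 chromosomes. The coding stretch around that run is printed for both genes (coding bases 2438 to 2577 of RBOHH and 2516 to 2655 of RBOHJ, RefSeq), with the 16 differing bases in capitals and the shared run in the lower case between them.
RBOHH: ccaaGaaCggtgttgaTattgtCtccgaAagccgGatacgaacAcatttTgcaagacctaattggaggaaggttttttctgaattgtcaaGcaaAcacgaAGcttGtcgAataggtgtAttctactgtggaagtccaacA
RBOHJ: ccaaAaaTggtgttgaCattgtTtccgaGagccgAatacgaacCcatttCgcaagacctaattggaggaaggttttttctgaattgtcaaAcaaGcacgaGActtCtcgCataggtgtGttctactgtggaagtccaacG

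MARIS lies on chromosome 2, from 17520379 to 17522756 on the minus strand, with 7 exons and 1098 coding bases, and none of its 50-base pieces occurred elsewhere either. The deposited bounds of RBOHH and of RBOHJ ran from start codon to stop codon, so that reads on their transcript ends outside the coding part were not part of their counts. RefSeq places 186 bases of RBOHH before those bounds and 297 bases after them, and the corresponding lengths were 223 and 157 bases for RBOHJ. Those of MARIS left out 37 bases at its start and 106 bases at its end.

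Upstream of their transcripts, RBOHH and RBOHJ held 1 identical run of 20 bases. It is printed in capitals within the 250 bases before each RefSeq start (TAIR10.1, RBOHH at chr5:24160020-24160269 on the plus strand and RBOHJ at chr3:16837793-16838042 on the minus strand), because this pair held nearly all reads of its family.
RBOHH: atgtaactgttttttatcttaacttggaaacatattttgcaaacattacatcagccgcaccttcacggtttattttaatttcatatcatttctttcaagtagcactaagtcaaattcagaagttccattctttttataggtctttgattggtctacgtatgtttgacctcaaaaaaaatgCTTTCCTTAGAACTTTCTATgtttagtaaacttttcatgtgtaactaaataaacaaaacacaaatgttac
RBOHJ: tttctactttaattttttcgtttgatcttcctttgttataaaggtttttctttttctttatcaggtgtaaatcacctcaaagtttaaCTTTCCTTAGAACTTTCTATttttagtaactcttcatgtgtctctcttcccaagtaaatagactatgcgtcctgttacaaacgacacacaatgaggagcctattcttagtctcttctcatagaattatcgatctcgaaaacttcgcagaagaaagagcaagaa
The run ended 51 bases before the RefSeq start of RBOHH and 144 bases before that of RBOHJ. It was found in 2 of 27443 promoters of this length, those of RBOHH and RBOHJ, and at 2 places in the 5 chromosomes. The letters AGAAA, described as a pollen element in the tomato LAT52 promoter, were counted on both strands in the same window. They occurred 2 times before RBOHH, 5 times before RBOHJ and 0 times before MARIS. At least 1 match stood in 82.5% of all promoters and at least 5 matches in 5.2%. The letters GTGA, another element described from pollen genes, occurred 1 time before each of the 3 genes, as in 77.5% of promoters at least once. These matches describe letters only.

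The libraries held between 43490027 and 53471964 reads over genes and transposable elements (TEs), and their 100 most abundant features took 60.6% to 72.4% of them. All 10 marker genes of the vegetative cell and all 10 of sperm cells had reads in every library, while at most 1 of 8 tapetum genes did. Markers of the vegetative cell, in which wall-integrity signalling acts, summed to 4484 to 5425 RPM (reads scaled to depth) in nrpd1a-3 FTL pollen and 5945 to 11483 in WT FTL pollen, and in whole pollen to 42423 to 42488 with pLAT52::RTL1, 36855 to 37553 with pMGH3::RTL1 and 35213 to 36516 in WT Col-0. That sum was carried by 1 gene, VGD1, a pectin methylesterase. It made up 48.0% to 64.0% of the sum in sorted pollen, 59.3% to 76.4% with pLAT52::RTL1, 89.3% to 90.5% with pMGH3::RTL1 and 88.3% to 90.9% in WT Col-0. The other 9 markers summed to 2047 to 2819 RPM in nrpd1a-3 FTL, 2900 to 4132 in WT FTL, 10025 to 17307 with pLAT52::RTL1, 3566 to 3952 with pMGH3::RTL1 and 3314 to 4116 in WT Col-0. Among these 9, PPME1 had the highest mean normalized count in whole pollen, 189404, followed by ACA9 with 44683. In pLAT52::RTL1 against WT Col-0, PPME1 was called higher (log2 fold change 2.29) and ACA9 lower (-1.15). Of all 10 markers, 5 were called higher and 2 lower there. In WT FTL against WT Col-0 only VGD1 was called lower among the 10, and 3 markers (PRF5, ADF7 and TIP1;3) were called higher. Of all tested genes, 16.4% were called lower in that comparison and 14.3% higher. Sperm markers summed to 448 to 957 RPM in all groups. Among these 10, PCR11 was called higher in WT FTL against WT Col-0, and GEX2 and TET11 were called lower. Leaf markers were highest in 1 of the nrpd1a-3 FTL libraries, at 18.7 RPM, with 0.521 in the other, against 0.219 to 0.389 in WT FTL. In whole pollen they stood at 6.36 to 6.55 with pLAT52::RTL1, at 4.71 to 6.45 with pMGH3::RTL1 and at 0.769 to 1.22 in WT Col-0. RTL1 had 134 to 270 reads in the transgenic libraries and 0 in the others. NRPD1A had 10 and 0 reads in the libraries labelled nrpd1a-3 FTL and 0 and 2 in those labelled WT FTL, too few to check the labels. The part of these differences in the values below was not tested, and in bulk pollen RNA fewer grains or cells of a type and less RNA per cell cannot be told apart.

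RBOHH was the more abundant oxidase in every library. Its normalized read counts, scaled within each experiment, were 708 and 852 in nrpd1a-3 FTL pollen and 1073 and 940 in WT FTL pollen. In whole pollen they were 3862 and 3299 with pLAT52::RTL1, 2884 and 3066 with pMGH3::RTL1, and 2818 and 3075 in WT Col-0. Both pLAT52::RTL1 libraries thus stood above all other whole-pollen libraries, and pMGH3::RTL1 overlapped with WT Col-0. The level of RBOHH, in RPKM (reads scaled to gene depth and to kilobases of transcript), was 19.6 to 38.1 in whole pollen, higher than that of 94.9% to 95.7% of the 26907 genes with a RefSeq length, and 4.90 to 9.42 in sorted pollen, higher than that of 90.2% to 91.9%.

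RBOHJ, its partner oxidase, had counts of 47.3 and 111 in nrpd1a-3 FTL pollen and 71.6 and 53.8 in WT FTL pollen. In whole pollen its counts were 755 and 557 with pLAT52::RTL1, 562 and 610 with pMGH3::RTL1, and 540 and 682 in WT Col-0. No group of RBOHJ stood apart within an experiment. Its level in RPKM was 3.65 to 7.25 in whole pollen, above 87.2% to 88.9% of genes, and 0.358 to 0.620 in sorted pollen, above 69.7% to 78.9%. The sorted libraries held only 49 to 88 RBOHJ reads each, which limits the precision there.

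MARIS, the kinase of the 3, had counts of 831 and 701 in nrpd1a-3 FTL pollen and 1528 and 774 in WT FTL pollen. In whole pollen its counts were 2968 and 2393 with pLAT52::RTL1, 2229 and 2176 with pMGH3::RTL1, and 2077 and 2241 in WT Col-0. Its widest spread within a group was in WT FTL, where replicate 1 had about 2 times the count of replicate 2 and the mean was 1151 ± 533 (SD, n = 2). In RPKM, MARIS was the highest of the 3 genes in every group, with a mean of 8.70 ± 2.87 in nrpd1a-3 FTL, 16.1 ± 8.65 in WT FTL, 43.3 ± 7.41 with pLAT52::RTL1, 25.3 ± 0.280 with pMGH3::RTL1 and 24.8 ± 1.25 in WT Col-0 (SD, n = 2 each). RBOHH followed with 5.21 ± 0.434, 8.37 ± 1.49, 34.9 ± 4.56, 20.6 ± 1.46 and 20.4 ± 1.19 in the same order of groups. The gap between the means of MARIS and RBOHH was smaller than the SD of MARIS in WT FTL alone. RBOHJ was lowest, with 0.489 ± 0.185, 0.509 ± 0.144, 6.22 ± 1.45, 3.94 ± 0.337 and 4.12 ± 0.661, and lay below RBOHH and MARIS in every library.

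**Figure D1:**
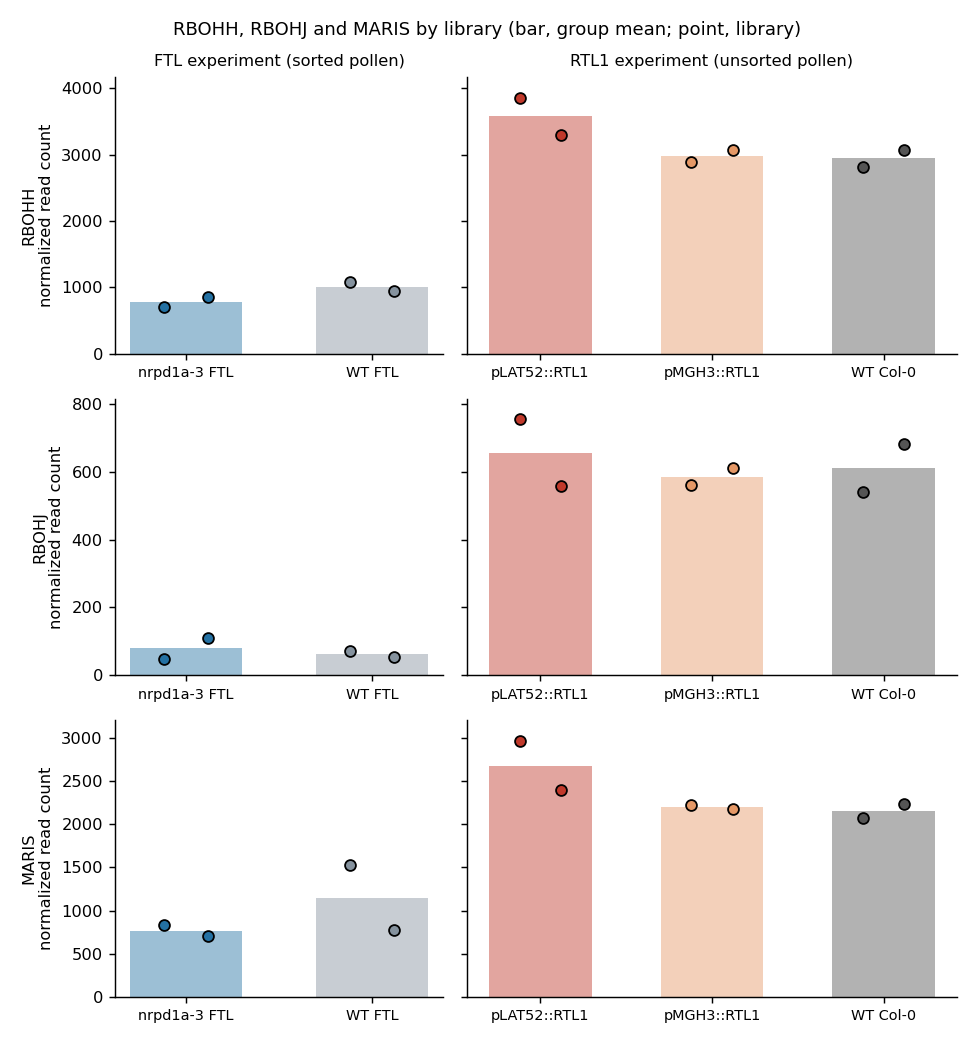
Normalized read counts (vertical axes, one panel row per gene) of RBOHH, RBOHJ and MARIS by group, with sorted FTL pollen on the left and whole pollen of the RTL1 experiment on the right. Points are libraries and bars are group means. Counts were scaled within each experiment, so the left and right panels are not on a common scale. RBOHJ reached 111 at most in sorted pollen, while its lowest whole-pollen library had 540. On a scale common to all 10 libraries, these values were 146 and 479.

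The other 8 RBOH genes had few reads. Together they had 11 to 37 reads per library, the most for any of them was 23 reads of RBOHB, and RBOHG had 0 reads in all 10 libraries, where a count of 0 allows up to 3 reads. RBOHH and RBOHJ therefore held 96.2% to 99.5% of all RBOH reads. None of the 8 was called in any comparison, in which 0 to 7 of them could be tested, and 0 had an unadjusted p under 0.05 by DESeq2 or a call by edgeR.

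The first comparison asks what RTL1 in the vegetative cell did to these transcripts. None of the 3 genes passed the test in pLAT52::RTL1 against WT Col-0 (DESeq2 with Benjamini-Hochberg adjustment, called at an adjusted p under 0.05), in which 14.3% of all tested genes and TEs were called. RBOHH had a log2 fold change of 0.28 ± 0.17 (SE, 95% interval -0.05 to 0.61, DESeq2 adjusted p = 0.320). MARIS had 0.31 ± 0.18 (-0.04 to 0.66, DESeq2 adjusted p = 0.280), and RBOHJ had 0.10 ± 0.23 (-0.34 to 0.55, DESeq2 adjusted p = 0.864). Here and in the other comparisons without a call, 0 of the 3 had an unadjusted p under 0.05 by DESeq2 or a call by edgeR. The counts of RBOHH and MARIS were higher in both pLAT52::RTL1 libraries than in both WT Col-0 libraries, as was so for 28.2% of all tested features. Of the 10 vegetative cell markers, 5 rose and 2 fell in the same comparison, beside 6.24% and 7.93% of all tested genes. The part of these markers in the values above was not tested. When each library of these groups was left out in turn, RBOHH ran from 0.17 to 0.40 and MARIS from 0.16 to 0.46. The upper end of both ranges came from the fit in which replicate 1 was the lone pLAT52::RTL1 library. Without pLAT52::RTL1 replicate 2, both genes passed the test, RBOHH at 0.40 (DESeq2 adjusted p = 0.0361) and MARIS at 0.46 (DESeq2 adjusted p = 0.0129), beside 9.77% of features called higher in that fit.

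These values depend on how the libraries are scaled. Scaling by total reads instead of DESeq2's median of ratios moved the median of all features by 0.48 on the log2 scale in this comparison and raised the share of higher calls to 87.2%, against 45.6%. On that scale all 3 genes were called higher with pLAT52::RTL1, beside 23.9% of features, RBOHH by 0.77 (DESeq2 adjusted p = 0.000139), RBOHJ by 0.59 (0.0436) and MARIS by 0.80 (0.000137).

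In pMGH3::RTL1, where RTL1 was expressed in the germline, the 3 genes stood close to WT Col-0, whose libraries are the controls of both constructs. The log2 fold changes were 0.01 ± 0.17 for RBOHH (SE, 95% interval -0.32 to 0.35), -0.06 ± 0.23 for RBOHJ (-0.51 to 0.39) and 0.03 ± 0.18 for MARIS (-0.32 to 0.38), each with a DESeq2 adjusted p of 1. Only 0.0217% of tested features were called in that comparison. Set against each other, pLAT52::RTL1 and pMGH3::RTL1 differed by 0.27 ± 0.17 in RBOHH (-0.07 to 0.60), 0.16 ± 0.23 in RBOHJ (-0.28 to 0.61) and 0.28 ± 0.18 in MARIS (-0.07 to 0.63), with DESeq2 adjusted p of 0.399, 0.805 and 0.389, while 12.9% of features were called. RBOHH and MARIS were again higher without overlap in pLAT52::RTL1, as were 26.6% of features, and without pLAT52::RTL1 replicate 2 they were called higher, by 0.38 (DESeq2 adjusted p = 0.0446) and 0.44 (0.0215), beside 9.72% of features called higher. Scaling by total reads moved the median by 0.49 here, and the 3 genes were then called at 0.75, 0.65 and 0.77 (DESeq2 adjusted p = 0.000199, 0.0247 and 0.000257), with 87.0% of calls higher against 42.9%. The higher calls made up 21.7% of features on that scale. Under the median of ratios, leaving out each library in turn gave 0.16 to 0.38 for RBOHH and 0.13 to 0.44 for MARIS.

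The FTL experiment asks what the loss of RNA polymerase IV in the grain did. No gene of the 3 was called between the libraries labelled nrpd1a-3 FTL and WT FTL, where 0.008% of features were called, that is 2 of 24995. RBOHH had -0.37 ± 0.44 (SE, 95% interval -1.23 to 0.50), RBOHJ 0.33 ± 0.75 (-1.14 to 1.80) and MARIS -0.59 ± 0.49 (-1.55 to 0.38), each at a DESeq2 adjusted p of 0.990. The intervals are wide, and changes as small as the pLAT52::RTL1 estimates were not detectable at this spread. RBOHH was lower in both nrpd1a-3 FTL libraries than in both WT FTL libraries, as were 11.3% of tested features, whereas RBOHJ and MARIS overlapped. The study sorted both populations simultaneously, and no source says that libraries with the same number came from the same sort. Read by number, RBOHH and MARIS were lower in nrpd1a-3 FTL in both pairs and RBOHJ was lower in 1 of 2. The share of all features lower in both pairs was not counted, so these directions set no gene apart. With the replicate number as a block, 407 features were called, RBOHH had -0.37 ± 0.32 (DESeq2 adjusted p = 0.453) and MARIS had -0.51 ± 0.33 (0.296). The 2-fold gap between the WT FTL libraries set the MARIS value, which was -1.0 with WT FTL replicate 2 left out and -0.03 with replicate 1 left out.

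The difference between the pLAT52::RTL1 effect and the nrpd1a-3 FTL effect was tested as an interaction over all 10 libraries. It was 0.56 ± 0.39 for RBOHH (DESeq2 adjusted p = 0.648), -0.35 ± 0.63 for RBOHJ (0.902) and 0.82 ± 0.46 for MARIS (0.506), while 2.73% of features were called. The MARIS value ran from 0.29 to 1.18 over the fits that each left out a library. MARIS passed without WT FTL replicate 2, at 1.18 (DESeq2 adjusted p = 0.0191), beside 5.4% of features called higher. Scaling by total reads moved the median of this contrast by 0.85 and the share of higher calls to 89.8%, against 21.0%, and RBOHH and MARIS were then called at 1.46 (DESeq2 adjusted p = 0.0121) and 1.69 (0.0311), beside 13.2% of features called higher.

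**Figure D2:**
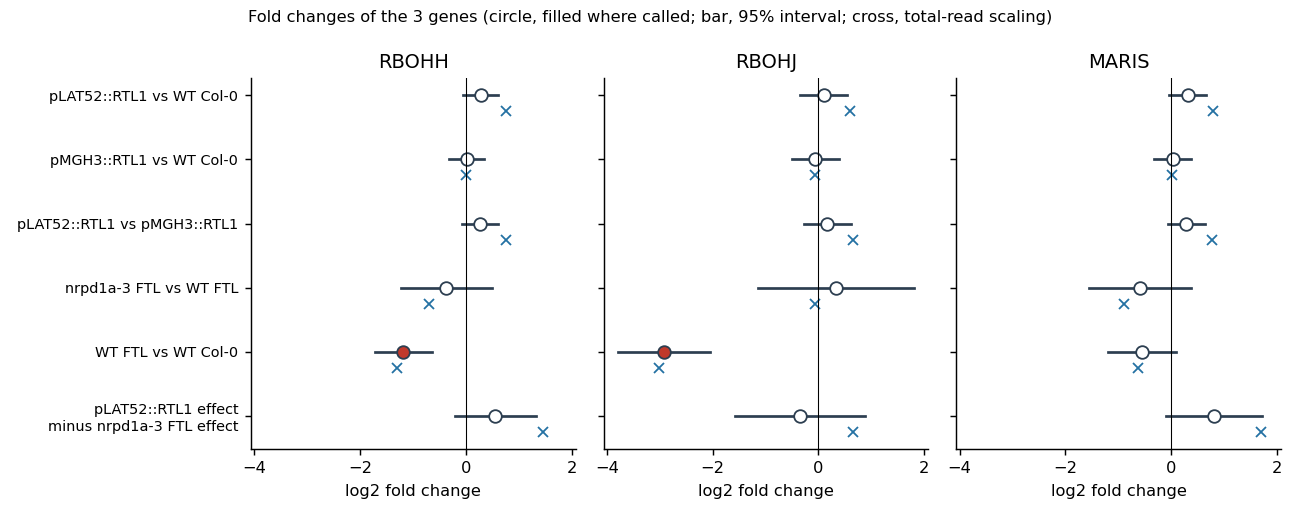
Log2 fold changes (horizontal axes) of RBOHH, RBOHJ and MARIS in the 6 comparisons, with DESeq2's estimate as a circle, its 95% interval as a bar and the estimate under scaling by total reads as a cross. Filled circles passed an adjusted p of 0.05, and these were RBOHH at -1.18 and RBOHJ at -2.92 in WT FTL against WT Col-0.

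The clearest difference in these genes lay between the controls, WT FTL and WT Col-0. On a scale common to all 10 libraries, RBOHJ had counts of 79.4 and 63.0 in WT FTL pollen, against 479 and 600.2 in WT Col-0 pollen. RBOHH had 1190 and 1102 in WT FTL, against 2500 and 2708 in WT Col-0, and MARIS had 1694 and 907 in WT FTL, against 1842 and 1974 in WT Col-0. All 3 genes were lower without overlap, as were 33.9% of tested features. RBOHJ was called lower at -2.92 ± 0.44 on the log2 scale (SE, 95% interval -3.79 to -2.05, DESeq2 adjusted p = 2.12e-09), which is 0.132 of the WT Col-0 level. RBOHH was called lower at -1.18 ± 0.28 (-1.72 to -0.64, DESeq2 adjusted p = 0.000162), which is 0.440 of it. MARIS, at -0.55 ± 0.33 (95% interval -1.19 to 0.09), did not pass (DESeq2 adjusted p = 0.203). In this comparison 30.3% of features were called and 15.4% were called lower. MARIS ran from -1.08 to -0.17 when each library was left out in turn. The calls of RBOHH and RBOHJ held with each library left out, and MARIS passed without WT FTL replicate 1, at -1.08 (DESeq2 adjusted p = 0.000995), beside 19.7% of features called lower. WT FTL and WT Col-0 differ in the DsRed marker, in sorting, in the heterozygous parent plant and in the experiment, and the effects of these cannot be told apart.

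The ratios between the genes within a library do not depend on scaling. RBOHJ reads were 6.68% and 13.0% of RBOHH reads in nrpd1a-3 FTL, and 6.67% and 5.72% in WT FTL. They were 19.6% and 16.9% with pLAT52::RTL1, 19.5% and 19.9% with pMGH3::RTL1 and 19.2% and 22.2% in WT Col-0. Each sorted library therefore lay below each whole-pollen library, while both RTL1 groups overlapped with WT Col-0. MARIS reads were 117% and 82.2% of RBOHH reads in nrpd1a-3 FTL, and 142% and 82.3% in WT FTL. In whole pollen they were 76.9% and 72.5% with pLAT52::RTL1, 77.3% and 71.0% with pMGH3::RTL1, and 73.7% and 72.9% in WT Col-0. The MARIS ratio was thus steady in the whole-pollen libraries and higher in the sorted ones, and replicate 1 was the higher in every group.

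**Figure D3:**
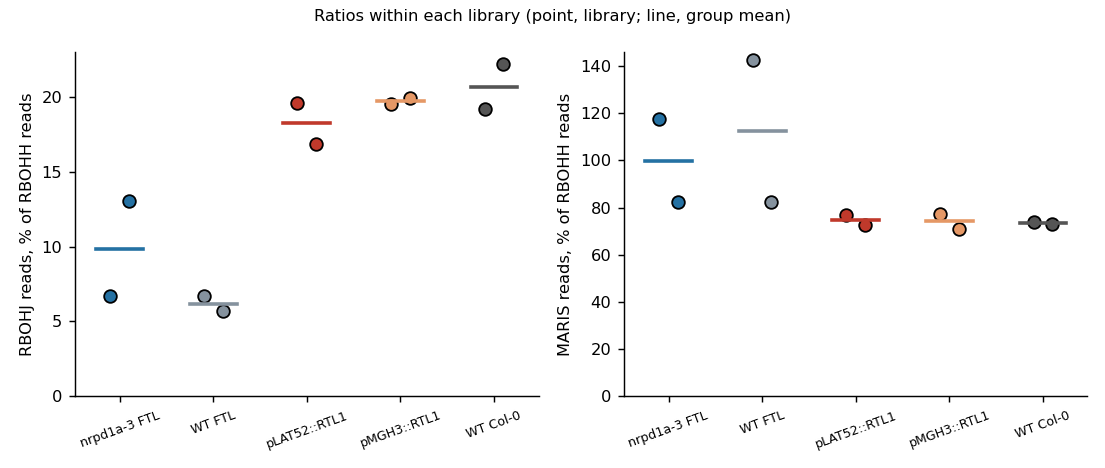
Reads of RBOHJ and of MARIS as a percentage of RBOHH reads in the same library (vertical axes), by group. Points are libraries and lines are group means. The RBOHJ ratio was 5.72% to 13.0% in the sorted FTL libraries and 16.9% to 22.2% in the whole-pollen libraries.

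The median values of genes in sorted pollen moved with transcript length class, and this stands beside the results of the 3 genes because their transcripts differ in length. The RefSeq transcripts of RBOHH, RBOHJ and MARIS have 3144, 3119 and 1672 bases. In WT FTL against WT Col-0, the median log2 fold change was 1.33 for 933 genes with transcripts under 1000 bases, 0.32 for 3218 genes from 1000 to 2000 bases, -0.66 for 1775 genes from 2000 to 3000 bases and -1.23 for 939 genes of 3000 bases or more, of which 60.9% were called lower. RBOHH, at -1.18, stood at the middle of its length class, where 52.0% of genes had lower values. RBOHJ, at -2.92, was 1.69 log2 units lower than the median of that class, and 2.02% of the class had lower values. MARIS, at -0.55, lay below the median of its class, with 26.8% of the class lower. A gradient of the same direction and smaller size was present in nrpd1a-3 FTL against WT FTL, with medians of 0.57, -0.05, -0.30 and -0.42 from the shortest class to the longest, and RBOHH, at -0.37, was again near the median of its class. RBOHJ, at 0.33, was above 94.7% of its class there, and MARIS, at -0.59, was above 14.4% of its class. The part of transcript length in these values was not tested. In pLAT52::RTL1 against WT Col-0 the medians ran only from 0.23 to -0.16, and the fold change of RBOHH was above that of 89.3% of its class, that of RBOHJ above 78.6% and that of MARIS above 72.7%.

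**Figure D4:**
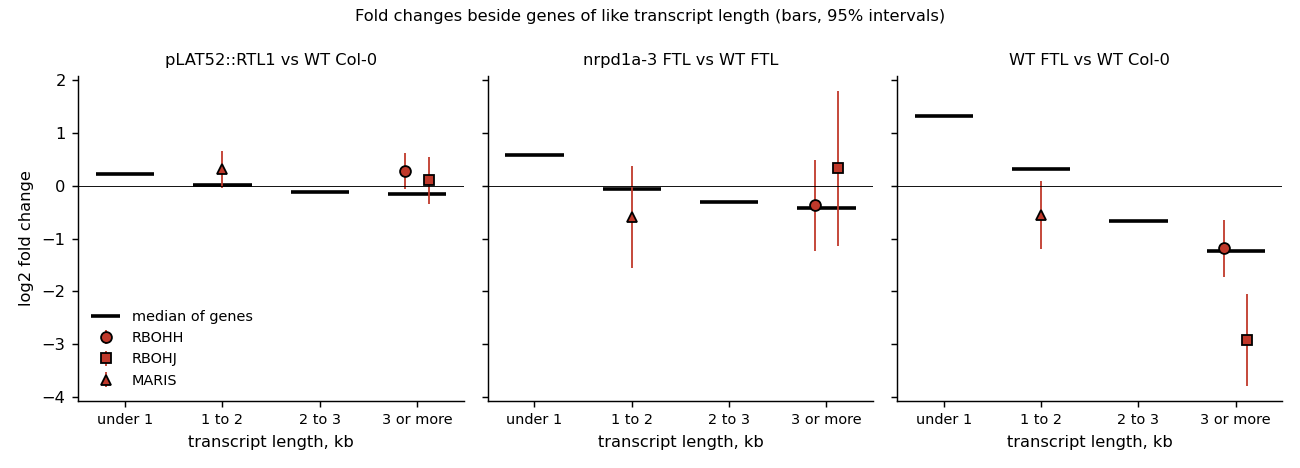
Log2 fold change (vertical axis) against transcript length class (horizontal axis, kilobases) in 3 comparisons, with the median of all genes in a class as a black line and RBOHH, RBOHJ and MARIS as points with 95% intervals. In WT FTL against WT Col-0, RBOHH lay on the line of its class at -1.23, and RBOHJ lay below it at -2.92.

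Several receptors and wall proteins that act above the 3 genes fell in the comparison of pLAT52::RTL1 with WT Col-0. The list of wall-integrity ligands, receptors and leucine-rich repeat proteins had 12 genes, all tested, of which 5 fell, 0 rose and 7 did not pass, with a median log2 fold change of -0.42. Among all tested genes 6.24% rose and 7.93% fell, and the median was -0.02. ANX2, a receptor kinase of the pollen tube membrane, had 14542 and 18330 normalized reads in pLAT52::RTL1, against 59514 and 59771 in WT Col-0, a difference of -1.86 ± 0.17 on the log2 scale (SE, DESeq2 adjusted p = 1.74e-25). Its close relative ANX1 had -0.26 ± 0.15 (DESeq2 adjusted p = 0.314). The malectin-like receptor kinases AT4G39110 and AT2G21480 fell by 0.97 (DESeq2 adjusted p = 1.17e-07) and 1.65 (9.05e-20) on the log2 scale.

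The leucine-rich repeat protein genes AT2G15880 and AT4G33970 also fell, with log2 fold changes of -2.99 (DESeq2 adjusted p = 4.34e-39) and -1.79 (0.00177). AT2G15880 had 18289 and 19659 normalized reads in pLAT52::RTL1, against 167832 and 133429 in WT Col-0. The RALF peptide genes RALFL4 and RALFL19 and the co-receptor genes LLG2 and LLG3 did not pass. All 5 genes that fell were also called lower against pMGH3::RTL1, beside 7.36% of all tested genes. When scaled by total reads, the 5 were again called lower against WT Col-0, while 87.2% of all calls were higher. The median of the list was then 0.06, and 2 of its genes were called higher, beside 23.9% of features. In pMGH3::RTL1 against WT Col-0 and in nrpd1a-3 FTL against WT FTL, 0 of the 12 were called by DESeq2 or edgeR, and 0 and 1 had an unadjusted p under 0.05. In the interaction ANX2 (-1.61, DESeq2 adjusted p = 0.00409), AT2G21480 (-1.58, 0.0186) and AT2G15880 (-3.22, 2.99e-05) were called lower by DESeq2, and the remaining 9 genes did not pass. Among all tested genes, 2.08% were called lower there and 0.562% higher. edgeR called 0 of the 12 in the interaction, where it called 0 of all features and so cannot set these genes apart. By DESeq2, 7 of the 12 had an unadjusted p under 0.05.

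**Figure D5:**
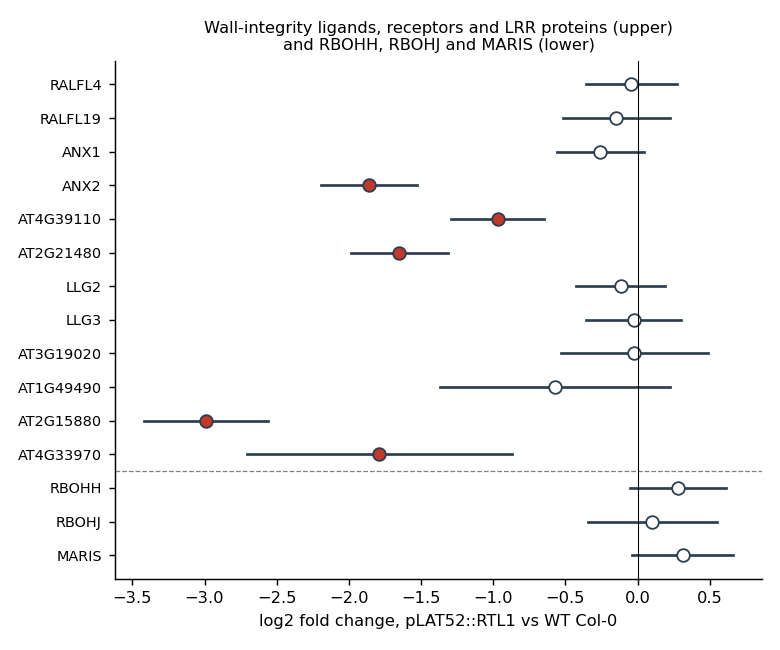
Log2 fold change of pLAT52::RTL1 against WT Col-0 (horizontal axis) for the 12 wall-integrity ligand, receptor and leucine-rich repeat genes, above the dashed line, and for RBOHH, RBOHJ and MARIS below it. Bars are 95% intervals and filled circles passed an adjusted p of 0.05. These are 5 genes from -0.97 to -2.99, while the values of the 3 genes lie between 0.10 and 0.31.

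The same list moved in both directions between the controls. In WT FTL against WT Col-0, 3 of the 12 genes rose and 7 fell, with a median of -1.26, beside 14.3% and 16.4% of all tested genes. The genes that rose were RALFL4 (2.30), RALFL19 (1.59) and LLG3 (1.81), with transcripts of 1239, 991 and 1796 bases. The largest falls were those of the leucine-rich repeat genes AT3G19020 (-3.47) and AT1G49490 (-3.43), with transcripts of 3414 and 2952 bases. The class medians of all genes moved with transcript length in this comparison, as given above, and the part of length in these values was not tested.

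Other kinases of the RLCK-VIII group and other proteins that work with MARIS were listed beside it. Of 10 other RLCK-VIII genes, 6 were tested in pLAT52::RTL1 against WT Col-0, and AT1G06700 (-0.44, DESeq2 adjusted p = 0.0432) and AT3G59350 (-0.70, 0.000305) fell, while 0 rose, beside 6.24% of all tested genes called higher and 7.93% called lower. Neither was called when scaled by total reads. In WT FTL against WT Col-0, AT3G17410 fell (-2.40, DESeq2 adjusted p = 0.000819) and AT3G59350 rose (0.91, 0.00158) among 7 tested, beside 16.4% of tested genes called lower and 14.3% called higher. The 7 listed partners of MARIS were the phosphatases TOPP8 and TOPP9, 4 MLO genes and the calcium channel gene CNGC18. Of 6 tested, 0 were called in pLAT52::RTL1 against WT Col-0, and in WT FTL against WT Col-0 TOPP8 rose (1.88, DESeq2 adjusted p = 1.88e-05) and CNGC18 fell (-1.02, 0.000247), beside the same shares of all tested genes. In pMGH3::RTL1 against WT Col-0 and in nrpd1a-3 FTL against WT FTL, 0 genes of both lists were called by DESeq2 or edgeR or had an unadjusted p under 0.05.

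Enzymes that use the superoxide and peroxide which RBOH proteins give rise to were listed as well. Of 16 superoxide dismutase, catalase and ascorbate peroxidase genes, 10 were tested in pLAT52::RTL1 against WT Col-0, where 2 rose and 0 fell, beside 6.24% and 7.93% of all tested genes. CSD1, a copper/zinc superoxide dismutase of the cytosol, had 378 and 184 raw reads with pLAT52::RTL1 and 32 and 32 in WT Col-0. After scaling between libraries, the difference was 2.53 ± 0.43 on the log2 scale (SE, DESeq2 adjusted p = 1.29e-07). CAT2, a catalase, had normalized counts of 1584 and 1293 in pLAT52::RTL1 and 784 and 864 in WT Col-0, a difference of 0.80 ± 0.19 (SE, DESeq2 adjusted p = 0.000462). Both pLAT52::RTL1 libraries of each gene lay above both WT Col-0 libraries, as was so for 28.2% of all tested features. Leaf markers were also higher there, at 6.36 to 6.55 RPM with pLAT52::RTL1 and 0.769 to 1.22 in WT Col-0, and their part in CSD1 and CAT2 was not tested. Against pMGH3::RTL1, CSD1 was again higher (2.44) and APX3, an ascorbate peroxidase of the peroxisome membrane, was lower (-0.75, DESeq2 adjusted p = 0.0223). Among all tested genes, 5.3% were called higher there and 7.36% lower. CAT2 did not pass against pMGH3::RTL1 (0.51, DESeq2 adjusted p = 0.0550), nor did APX3 against WT Col-0 (-0.56, 0.124). In WT FTL against WT Col-0, CSD1 rose (2.07), and the catalase genes CAT1 (-0.74), CAT2 (-1.93) and CAT3 (-1.17) fell, beside 14.3% of tested genes called higher and 16.4% called lower. In pMGH3::RTL1 against WT Col-0 and in nrpd1a-3 FTL against WT FTL, 0 of the 16 were called by DESeq2 or edgeR or had an unadjusted p under 0.05.

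Likeness of pattern was measured as the root mean square difference of log2 counts, centred within each experiment, over the 10 libraries, among 2732 other genes whose mean normalized count was 500 or more (2733 for RBOHJ). The gene most like RBOHH was VLN2 (0.0516), an actin-bundling villin, followed by AT4G33150 (0.0700) and AT5G01700 (0.0766). Those most like RBOHJ were AT2G33320 (0.126), AT2G46140 (0.175) and the cation exchanger gene CHX11 (0.190). Those most like MARIS were AT3G05150 (0.0673), the ubiquitin-conjugating enzyme gene UBC10 (0.0793) and SEC14 (0.0804). RBOHH had rank 365 in likeness to MARIS, at 0.218, which was closer than the median of 0.398 over the 2732 genes. RBOHJ, whose own mean count was under 500, had rank 946 in likeness to RBOHH, at 0.30 against a median of 0.365. From MARIS, RBOHJ was farther than the median, at 0.43 and rank 1522. These values describe 10 libraries in 5 groups and carry no test.

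Transcript around the 3 genes was read from the intervals and TEs next to them, because the deposited bounds leave out transcript ends. The interval after RBOHH, in which a long noncoding RNA gene of the opposite strand, AT5G60022, also lies, held 231 and 274 reads in nrpd1a-3 FTL and 181 and 320 in WT FTL. These were 31.5% and 40.5% of RBOHH reads in nrpd1a-3 FTL, and 14.0% and 32.7% in WT FTL. In whole pollen the share was 10.5% to 13.2%. The reads of the interval could not be split by strand, so that the end of RBOHH and the noncoding RNA cannot be told apart. As an alternative chosen after the data were seen, both adjoining intervals were added to RBOHH and the interval before the start to RBOHJ. This changed no call of RBOHH or RBOHJ, and RBOHH in WT FTL against WT Col-0 was then -1.05 (DESeq2 adjusted p = 0.00151). Nothing was added to the end of RBOHJ or to MARIS, so the alternative does not cover them.

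A TE annotated over the end of RBOHJ shares bases with its coding sequence. This element, AT3TE68170 of the family ATTIR16T3A (TAIR10, chr3:16832858-16832909), is printed on the strand of RBOHJ, with the 27 bases that belong to the RBOHJ coding sequence in capitals.
AT3TE68170: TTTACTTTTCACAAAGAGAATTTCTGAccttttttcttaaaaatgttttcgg
It had 1 and 2 reads in nrpd1a-3 FTL and 0 and 4 in WT FTL. In whole pollen the element had 40 and 24 with pLAT52::RTL1, 11 and 22 with pMGH3::RTL1 and 7 and 17 in WT Col-0. Its log2 fold change in pLAT52::RTL1 against WT Col-0 was 0.85 ± 0.79 (DESeq2 adjusted p = 0.587), and reads of this element and of the end of RBOHJ cannot be told apart. The interval before MARIS held 140 and 141 reads in nrpd1a-3 FTL and 252 and 155 in WT FTL, against 515 and 600 with pLAT52::RTL1, 428 and 403 with pMGH3::RTL1 and 275 and 345 in WT Col-0, and it also holds the end of the neighbouring gene AT2G41980 by RefSeq's annotation.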

How the data were processed

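Whole-read counts per gene, TE and interval were deposited for each of the 10 libraries. Per the submitters' processing notes and the study's methods, the authors mapped paired reads to TAIR10 with STAR. The counting program, its use of strand and its treatment of reads with several matches are not given in the sources used here, and 65.7% to 74.8% of counts were even, as where both reads of a pair are counted. Here DESeq2 1.42.0 in R 4.3.3 was run on genes and TEs together, with 6 libraries for the RTL1 experiment, 4 for the FTL experiment and 10 for WT FTL against WT Col-0 and the interaction. Features were called at a Benjamini-Hochberg adjusted p under 0.05, and 95% intervals are Wald intervals. Adjusted p-values that DESeq2 withholds were counted as not tested. edgeR 4.0.16 (quasi-likelihood), other scalings, a count filter, a replicate block, other sets of libraries and each library left out were the alternatives. Levels use RefSeq transcript lengths within the deposited bounds (TAIR10.1), matched for 98.2% of genes. Genes whose mean normalized count was 50 or more entered the length classes, which use whole transcript lengths. These classes were a check chosen after the data were seen. Scripts were tested on simulated counts. The 3 genes and the gene lists were chosen with earlier results of these data known. All 3 genes are named, list genes are named where called or as their close relatives, and 3 genes are named as most like each.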

Additional observations from a re-analysis of the deposited data

Results flagged for a closer look

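Next to the 3 genes, reads of several intervals and of 1 TE were higher in both libraries of a transgenic or mutant group than in both libraries of its control. Values are mean normalized counts (n = 2 libraries each), and the intervals were not tested. The interval after RBOHH had 457 in pLAT52::RTL1 and 343 in pMGH3::RTL1, against 311 in WT Col-0. The interval before RBOHH had 32.9 in nrpd1a-3 FTL, against 21.1 in WT FTL. The interval before MARIS had 429 in pLAT52::RTL1 and 447 in pMGH3::RTL1, against 359 in WT Col-0. The interval after MARIS had 33.0 in pLAT52::RTL1 and 38.1 in pMGH3::RTL1, against 22.0 in WT Col-0, and 16.2 in nrpd1a-3 FTL, against 9.54 in WT FTL. The TE AT3TE68170, which overlaps the end of RBOHJ, had 24.5 in pLAT52::RTL1, against 13.5 in WT Col-0, and this difference did not pass the test (DESeq2 adjusted p = 0.587).

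Other intervals were lower in both libraries. The interval before RBOHH had 63.9 in pMGH3::RTL1, against 95.3 in WT Col-0. The interval before RBOHJ had 26.2 in pMGH3::RTL1, against 37.6 in WT Col-0, and 0 reads in both nrpd1a-3 FTL libraries, against 6 and 2 reads in WT FTL. Among all tested genes and TEs, 28.2% were higher without overlap with pLAT52::RTL1 than in WT Col-0, 13.0% were higher and 11.3% lower in pMGH3::RTL1, and 12.4% were higher and 11.3% lower in nrpd1a-3 FTL than in WT FTL.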

How the results depend on the processing

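Leaving aside single libraries, 154 of 165 values of the 3 genes under the alternatives kept their direction and their side of the threshold, and the calls of RBOHH and RBOHJ in WT FTL against WT Col-0 held in all, at -1.29 to -1.05 (adjusted p 4.48e-05 to 0.00657) and -3.02 to -2.86 (4.77e-12 to 0.00068). Scaling by total reads brought the calls given above for RBOHH (0.77), RBOHJ (0.59) and MARIS (0.80) in pLAT52::RTL1 against WT Col-0, with 3294 features called against 1573, for 0.75, 0.65 and 0.77 against pMGH3::RTL1, with 3124 called against 1353, and for RBOHH (1.46) and MARIS (1.69) in the interaction, with 1001 called against 324. It turned RBOHJ to -0.064 in nrpd1a-3 FTL against WT FTL, with 1 called against 2, and to 0.65 in the interaction, neither passing. In the interaction TMM scaling moved the median by 0.19 and the share of higher calls to 40.8%. edgeR called 1 feature in pMGH3::RTL1 against WT Col-0 (6 by DESeq2), 1 in nrpd1a-3 FTL against WT FTL and 0 in the interaction, where 447, 518 and 1530 had an unadjusted p under 0.05. A filter of at least 10 counts in 2 libraries gave 5 calls in nrpd1a-3 FTL against WT FTL. One fit of all 10 libraries gave 682 calls in pLAT52::RTL1 and 2 in pMGH3::RTL1 against WT Col-0, 587 between the constructs and 28 in nrpd1a-3 FTL against WT FTL, and RBOHH in pMGH3::RTL1 was then -0.0059. A fit of only the 4 libraries of pMGH3::RTL1 and WT Col-0 called 12. By length, RBOHH in WT Col-0 was 17.3 over the whole transcript (20.4 within the deposited bounds). MARIS there was 36.3 over coding bases (24.8 over its transcript within the deposited bounds). RBOHJ per kilobase in pMGH3::RTL1 was 19.1% of RBOHH (19.7% in reads). Apart from what the construction of each alternative shows, the cause was not tested.

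The replicate block called 407 features in nrpd1a-3 FTL against WT FTL (2 without it) and none of the 3 genes in that comparison. It changed no call of the 3 genes in the others. The labels do not say that a number marks a shared source, and deviations of same-numbered libraries correlated at 0.57 between the FTL groups and at 0.22, -0.02 and 0.15 between pairs of the RTL1 experiment.

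With 1 library left out, the lone library of a group is assumed to vary like the other groups. Values for RBOHH, RBOHJ and MARIS ran from 0.17 to 0.40, -0.12 to 0.31 and 0.16 to 0.46 in pLAT52::RTL1 against WT Col-0 (701 to 2287 features called), from -0.059 to 0.075, -0.23 to 0.12 and -0.037 to 0.082 in pMGH3::RTL1 against WT Col-0 (1 to 4), from 0.16 to 0.38, -0.060 to 0.37 and 0.13 to 0.44 between the constructs (659 to 2047), from -0.56 to -0.25, -0.46 to 0.82 and -1.0 to -0.026 in nrpd1a-3 FTL against WT FTL (1 to 42), from -1.25 to -1.13, -3.10 to -2.76 and -1.08 to -0.17 in WT FTL against WT Col-0 (3013 to 5306), and from 0.31 to 0.86, -0.93 to 0.58 and 0.29 to 1.18 in the interaction (159 to 935). Depth limits RBOHJ in sorted pollen, with 49 to 88 reads a library.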
